A study of Drosophila melanogaster with 48 samples.

Results

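The vacuolar proton pump (V-ATPase) of Drosophila melanogaster is described here through the genes whose FlyBase symbol starts with Vha. The reference annotation holds 33 such genes, of which 32 had a row in the tables, and 23 of 10617 genes had a mean of at least 10 in at least 1 of the 6 tables and are the members described below. The members were chosen by name and by this minimum, with earlier results of these data known. The rule itself used no comparison between groups, but 2 members passed the minimum through gut tables only. Vha16-2 was not analysed here.

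The study profiled poly(A) RNA of guts and of fat bodies from adult females of 3 genotypes in the outbred wDah background, in 48 libraries that fall into 12 groups of 3 to 5. S106>Xbp1s females carried a transgene for the spliced form of Xbp1, a transcription factor of the unfolded protein response. S106>Xbp1U females carried an unspliceable form, in which a mutation prevents splicing into the spliced form. S106>Wdah females carried the driver alone. S106 is a GeneSwitch driver, a Gal4 protein that is activated by the drug RU486, and it is active in both gut and fat body, so that a driver insertion was common to all groups. Within each genotype and tissue, RU+ flies were fed 200 µM RU486 for 7 days and RU- flies received the ethanol vehicle, and tissues were dissected on day 9. By group, the Xbp1s guts had 3 RU+ and 3 RU- libraries, the Xbp1s fat bodies 4 and 4, the Xbp1U guts 4 and 4, the Xbp1U fat bodies 4 and 3, the driver-alone guts 4 and 5, and the driver-alone fat bodies 5 and 5. Each library pooled 12 guts or 12 fat bodies, and the fat bodies were taken with the abdominal cuticle attached.

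The V-ATPase is a rotary enzyme. Its cytosolic V1 sector hydrolyses ATP and turns a central stalk, and the stalk turns a ring of proteolipids in the membrane-bound V0 sector, which carries protons out of the cytosol. Every cell uses it to acidify lysosomes and endosomes, and in flies the same pump is placed in the plasma membrane of acid-secreting copper cells of the midgut and of the principal cells of the Malpighian tubule. Many of its subunits are encoded in flies by several paralogous genes, usually a broadly expressed gene and others with restricted expression, and the membrane subunit a is known from yeast to direct the pump to different compartments.

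The value used was the authors' mean for a gene in a table, which pools the RU+ and RU- libraries of a genotype and tissue. It therefore carries no SD or n, it does not measure the response to RU486, and no difference below had a replicate check or a test. The 6 tables were normalized separately, and their summed means were 2.25e+07 to 2.51e+07. To set levels side by side, the means were divided by 1 factor per table, chosen so that the typical gene had the same value in all tables (scaled mean). Dividing by the summed mean of the genes present in all tables (scaling to the total) instead lowered every difference between gut and fat body by 0.50 on the log2 scale, and where this altered a call or a direction it is stated. The tissue labels matched their markers, with all 7 enterocyte markers higher in gut and all 7 fat body markers higher in fat body. All 6 germline and eggshell markers were higher in the fat body samples, with vas at 1598, 1078 and 1453 in driver-alone, Xbp1s and Xbp1U females against 282, 17.3 and 52.1 in guts. In bulk tissue, fewer cells of a type and less RNA per cell cannot be told apart.

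Guts carried several times more V-ATPase mRNA than fat bodies. The 23 members together made up 1.48%, 1.72% and 1.499% of all summed means in the driver-alone, Xbp1s and Xbp1U guts and 0.313%, 0.364% and 0.359% in the fat bodies. These shares were taken within a table and do not depend on the scaling between tables. A core set of 13 members, the broadly expressed gene of each subunit other than a together with the accessory protein VhaAC45, supplied 90.2% to 92.2% of the members' sum in each table.

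In the V1 sector the catalytic and nucleotide-binding subunits were among the most abundant. Vha68-2 (2L:12974322-12978607, plus strand), the catalytic subunit A, had scaled means of 37369.5, 49432 and 40381 in the driver-alone, Xbp1s and Xbp1U guts and 5466, 6967 and 5818 in the same order of fat bodies. Vha55, the nucleotide-binding subunit B, had 36254, 48462 and 39424 in guts against 6478, 8088 and 6402 in fat bodies. Every gut value of these 2 genes was above every fat body value, and the gut was 6.96-fold higher for Vha68-2 and 5.91-fold higher for Vha55 in the geometric mean over genotypes.

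The stalk subunits had the same pattern. Vha36-1 (subunit D), the axle of the central stalk, had scaled means of 12735, 15588 and 15340.2 in guts against 2013, 1934 and 2489 in fat bodies. Vha14-1 (subunit F), which sits with D in the stalk, had 9206, 8207 and 9571 in guts against 1755, 1162 and 1641 in fat bodies. The 2 genes were 6.798-fold and 6.001-fold higher in gut, and Vha14-1 was the core member with the widest spread between fat body tables. Vha26 (subunit E), which forms the peripheral stalks that hold the catalytic head still, had 40182, 49607 and 44115 in guts against 6337, 7226 and 7371 in fat bodies. Vha13 (subunit G), its partner in these stalks, had 35715, 35862 and 36194 in guts against 5408, 5134 and 6133 in fat bodies. In guts Vha13 lay within 1.01-fold across the 3 genotypes. Vha44 (subunit C), which joins the peripheral stalks to the membrane sector and leaves the pump when it is taken apart, had 17186, 21032 and 18846 in guts against 2699, 3342 and 3169.7 in fat bodies. VhaSFD (subunit H), known from yeast to hold free V1 inactive, had 14309, 19225 and 16626 in guts against 2663, 3482 and 3219.7 in fat bodies, and its 5.35-fold difference was the smallest of the core set.

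In the V0 sector, Vha16-1, the proteolipid c that forms most of the rotating ring, had the largest scaled means of all members, at 96993, 121605 and 109835 in guts against 15333, 17272 and 16091 in fat bodies. It ranked 23 to 25 among all genes in the gut tables and 169 to 176 in the fat body tables by mean. VhaPPA1-1, the c″ proteolipid of the same ring, had 15867, 19104 and 18861 in guts against 2844, 2722 and 2688 in fat bodies. Both ring genes were higher in every gut table than in any fat body table. VhaAC39-1 (subunit d), which seats the stalk on the ring, had 15884, 21249.5 and 18228 in guts against 2719, 3280.2 and 3395 in fat bodies. VhaM9.7-b, the small membrane subunit e, had 10455, 8916 and 10114 in guts against 1745, 1282 and 1390.2 in fat bodies. The gut was between 5.88-fold (VhaAC39-1) and 6.72-fold (Vha16-1 and VhaM9.7-b) higher for these 4 genes, and none of their gut and fat body values overlapped. VhaAC45, an accessory protein of the membrane sector, had 21374, 28409 and 25575 in guts against 2829.9, 3770.3 and 3069.5 in fat bodies, and its 7.798-fold difference was the largest of the core set. ATP6AP2, the other accessory protein, is not named Vha and was not counted as a member, and it had 16435, 21071 and 19872 in guts against 2758, 3211 and 3298 in fat bodies, a log2 difference of 2.63.

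**Figure D1:**
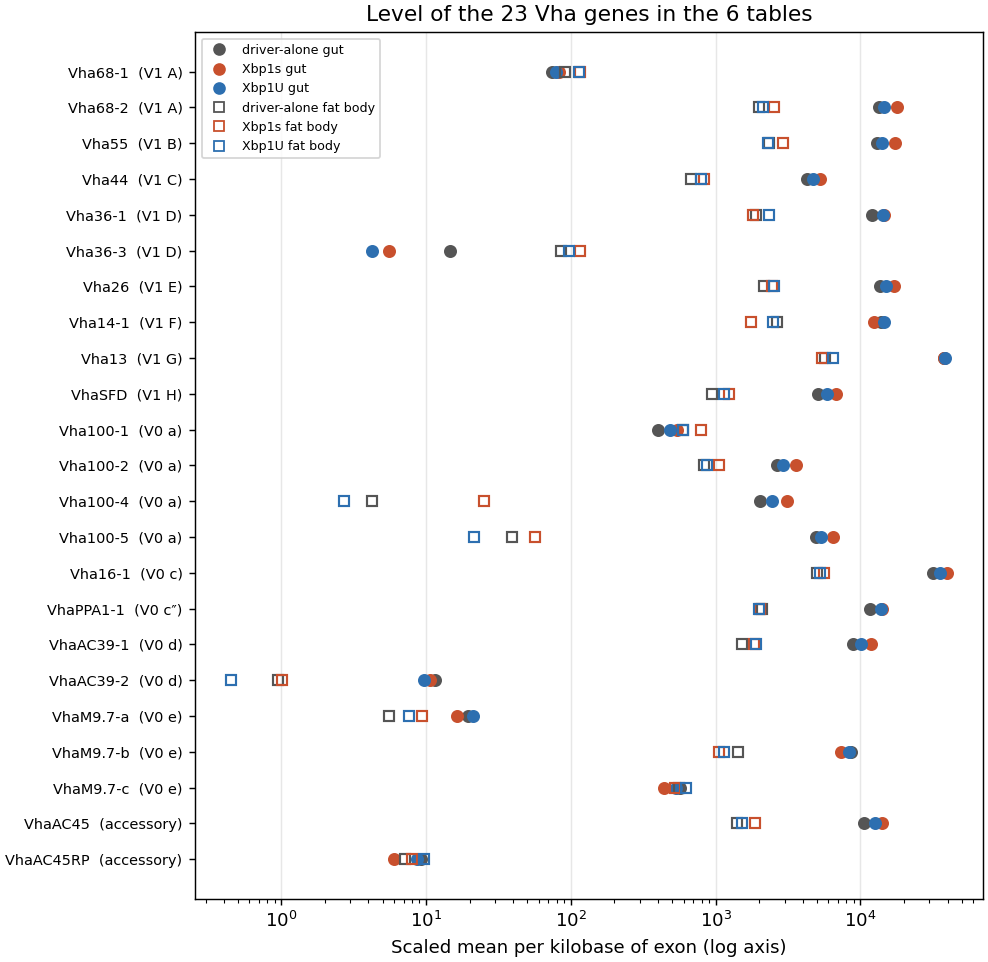
Scaled mean per kilobase of exon, on a log axis, of the 23 Vha genes in the 6 tables, with the subunit in brackets; filled circles are guts, open squares are fat bodies, and colours mark the 3 genotypes. The 13 core genes form gut and fat body clusters that do not overlap, Vha100-4 and Vha100-5 are farthest apart, and Vha36-3 is the gene with fat body values well above its gut values.

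The core set was close to uniform in its tissue difference. Its log2 ratios of gut to fat body ran from 2.42 (VhaSFD) to 2.96 (VhaAC45), with a median of 2.70, or 6.48-fold, while the median over all genes was -0.06 with quartiles of -0.98 and 0.69. The core median was 2.66 in driver-alone, 2.80 in Xbp1s and 2.62 in Xbp1U females when each genotype was taken on its own. All 13 core genes ranked among the 500 highest of 10617 genes per kilobase in every gut table, and 2 of 13 did so in every fat body table.

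A member was called higher in a tissue when its lowest mean there was at least 2 times its highest mean in the other tissue. By this rule 17 of 23 members were higher in gut (73.9%), against 14.6% of all 10617 genes, and 1 of 23 was higher in fat body (4.35%), against 16.2% of all genes. The 17 were the 13 core genes with Vha100-2, Vha100-4, Vha100-5 and VhaAC39-2, and the 1 was Vha36-3. Vha100-1, Vha68-1, VhaM9.7-a, VhaM9.7-c and VhaAC45RP were not called. Nearest to the limit, the lowest gut mean of Vha100-2 was 2.53 times its highest fat body mean and that of VhaM9.7-a was 1.74 times. Scaled to the total, Vha100-2 was no longer called and the other 16 were. VhaAC39-2 and VhaM9.7-a passed the minimum of 10 through gut tables only, so their presence among the members rests on the tissue in which they were higher.

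**Figure D2:**
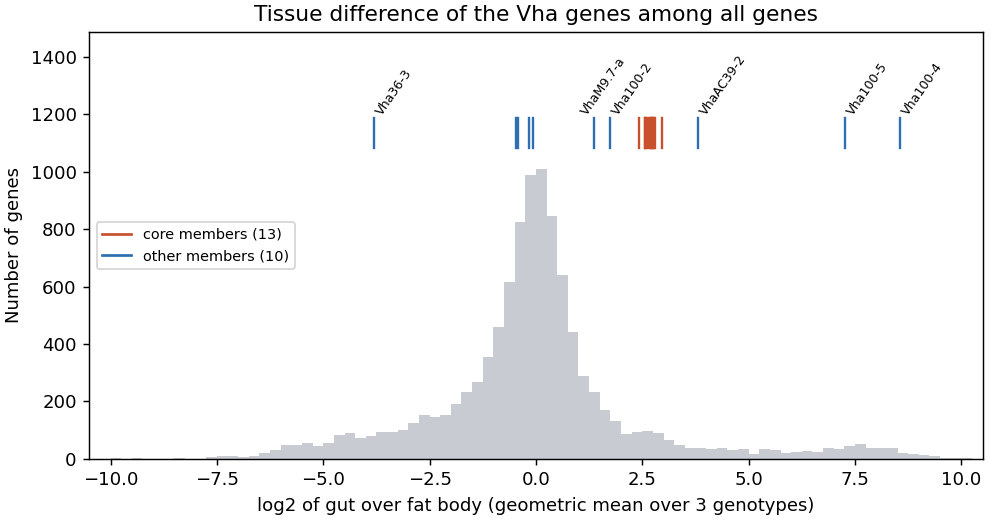
Histogram of the log2 ratio of gut to fat body over the 10432 genes with a value above 0 in all tables (grey bars, number of genes per bin of 0.25), with the 13 core members (red) and the 10 other members (blue) as ticks above it. The core members lie together between 2.42 and 2.96, and the other members spread from -3.81 (Vha36-3) to 8.56 (Vha100-4).

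Subunit a, the membrane stator through which protons pass, was the subunit whose paralogs differed most between tissues. Vha100-5 (2L:11738948-11744524, plus strand) had scaled means of 14505, 18856 and 15658 in the driver-alone, Xbp1s and Xbp1U guts and 114.7, 166 and 62.1 in the same order of fat bodies. Its fat body level was 0.7904%, 0.882% and 0.396% of its gut level in driver-alone, Xbp1s and Xbp1U females. Vha100-4 (3R:18386841-18389805, minus strand) had 5548, 8447 and 6652 in guts against 11.5, 68.5 and 7.33 in fat bodies, and its fat body level was 0.207%, 0.811% and 0.1103% of its gut level. The geometric means over genotypes were 154-fold and 378-fold higher in gut. Vha100-2 (3R:18390323-18399169, minus strand) had 8553, 11616 and 9477 in guts against 2695, 3375 and 2804 in fat bodies, a 3.33-fold difference. It lies 518 bp from Vha100-4 on the same strand, so that neighbouring genes of 1 subunit had tissue differences of 1.74 and 8.56 on the log2 scale. Vha100-1 (3R:29131193-29137980, plus strand), known in flies for its role on synaptic vesicles of neurons, had 1309, 1791 and 1582 in guts against 1954, 2591 and 1946 in fat bodies. Its fat body values were all above its gut values, the lowest by 1.09-fold over the highest gut value, which is below the 2-fold limit. The 5 neuron markers had no common direction, with log2 differences of 0.77 for nSyb, 0.87 for Syt1 and 1.76 for brp, and of -1.37 for elav and -1.60 for VGlut, which stayed below the minimum.

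Within each table the per-kilobase levels of the subunit a paralogs add up to its whole. Vha100-5 made up 49.4%, 47.1% and 47.8% in guts against 2.67%, 2.97% and 1.43% in fat bodies, with the genotypes in the same order, and Vha100-4 made up 20.2%, 22.6% and 21.7% in guts against 0.285%, 1.31% and 0.181% in fat bodies. Both were main contributors in guts and minor ones in fat bodies. Vha100-2 made up 26.4%, 26.3% and 26.2% in guts against 56.7%, 54.6% and 58.6% in fat bodies, and Vha100-1 made up 3.96%, 3.97% and 4.29% in guts against 40.3%, 41.1% and 39.8% in fat bodies. The fat body mixture therefore consisted almost wholly of Vha100-2 and Vha100-1, while the gut held 4 paralogs with Vha100-5 as the largest. Genotypes differed little in the gut shares, with the Vha100-5 share between 47.1% and 49.4% in the 3 tables. In fat bodies the shares of Vha100-2 and Vha100-1 differed little as well. There the small share of Vha100-4 ran from 0.181% to 1.31% and that of Vha100-5 from 1.43% to 2.97%. Exons of Vha100-5 overlap an antisense gene, asRNA:CR44144, over 527 bp (18.1% of its exonic length). Whether the counting used strand was not given in the sources used here, and the antisense gene itself had scaled means of 19.6 to 27.6 in guts. Exons of Vha100-4 overlap another gene on the opposite strand over 47 bp (1.72%), those of Vha44 over 148 bp (3.68%) and those of Vha100-1 over 11 bp (0.334%).

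**Figure D3:**
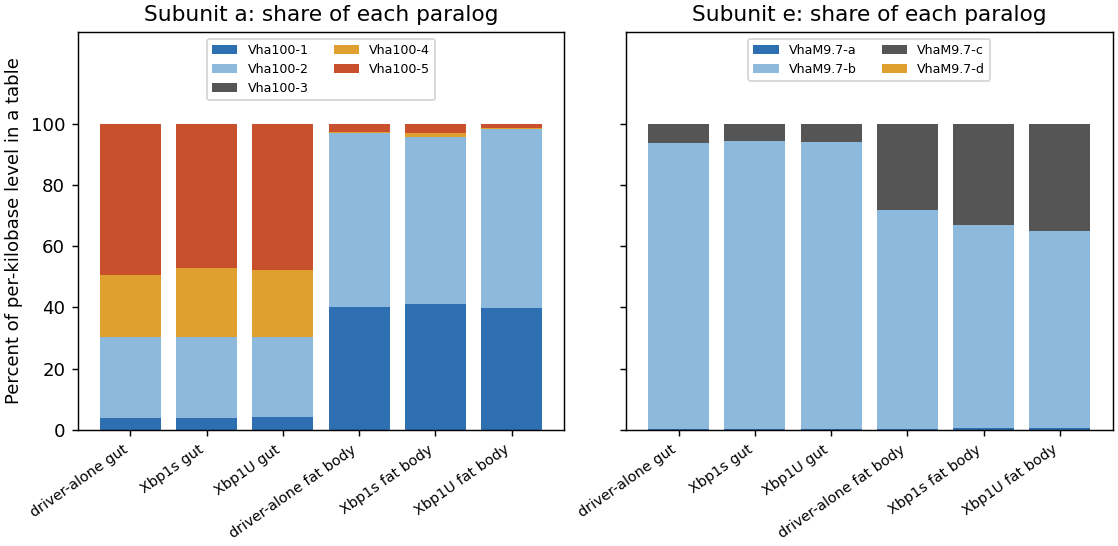
Share, in percent, of each paralog in the summed per-kilobase level of subunit a (left) and subunit e (right) in each of the 6 tables, as stacked bars that start at 0. In guts Vha100-5 and Vha100-4 fill at least 69.5% of subunit a in every table, in fat bodies Vha100-2 and Vha100-1 fill at least 95.7%, and VhaM9.7-c takes 28.03% to 34.99% of subunit e in fat bodies against 5.66% to 6.18% in guts.

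The fat body levels of Vha100-4 and Vha100-5, as a percent of gut levels, lay in or near the range of the enterocyte markers. Other gut cell markers lay partly above them. The 7 enterocyte markers, mostly secreted digestive enzymes, had summed levels in fat bodies of 0.978%, 0.630% and 0.151% of those in guts for driver-alone, Xbp1s and Xbp1U females, and the 3 copper cell markers (lab, Ptx1 and dve) had 1.71%, 2.59% and 1.57%. The 6 enteroendocrine markers had summed levels of 1.33%, 1.96% and 1.002% in the same order of genotypes. Of these, AstC and NPF had 0.2396%, 0.847% and 0.121% and 0.265%, 0.847% and 0.132%. Tk had 0.727%, 0.854% and 0.248%. The other markers of this list lay above Vha100-4 and Vha100-5. AstA had 1.79%, 2.67% and 1.197%, Dh31 had 4.07%, 2.42% and 2.85%, and pros had 27.5%, 36.9% and 28.01%. Vha100-4 and Vha100-5 had their highest fat body level in Xbp1s and their lowest in Xbp1U females. The same order was found in 4 of 7 enterocyte, 4 of 6 enteroendocrine, 2 of 3 copper cell and 0 of 2 stem cell markers. How common this order was over all genes was not counted. The trypsin genes alphaTry, betaTry and epsilonTry were highest in driver-alone fat bodies, Ptx1 and pros were highest in Xbp1s and lowest in driver-alone fat bodies, and Dh31 was lowest in Xbp1s fat bodies. The part of gut RNA in the fat body values was not tested.

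**Figure D4:**
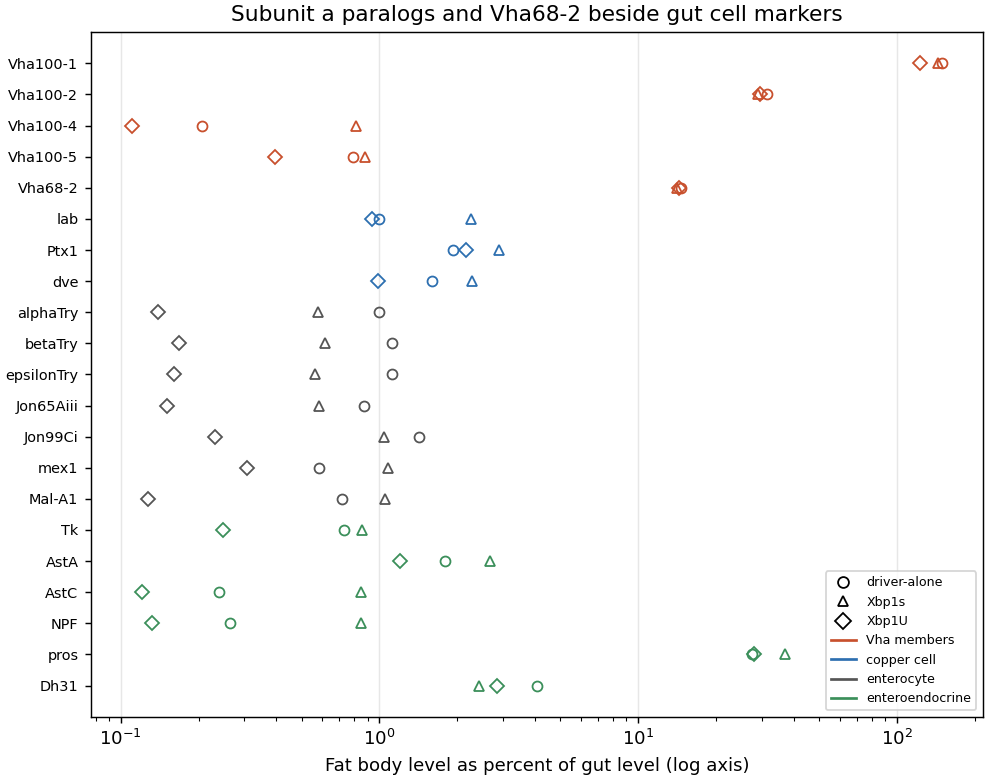
Fat body level as a percent of gut level, on a log axis, for the subunit a paralogs and Vha68-2 (red) and for copper cell (blue), enterocyte (grey) and enteroendocrine (green) markers; symbols mark the 3 genotypes. Vha100-4 and Vha100-5 lie between 0.110% and 0.882%, in or near the range of the enterocyte markers. Vha68-2 lies at 14.1% to 14.6%, Vha100-2 at 29.1% to 31.5% and Vha100-1 at 123% to 149%.

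Subunit D had a paralog with the opposite direction. Vha36-3 (X:2579091-2580560, minus strand) had scaled means of 18.996, 7.22 and 5.499 in the driver-alone, Xbp1s and Xbp1U guts and 111, 149 and 126 in the same order of fat bodies, and was 14.03-fold higher in fat body. No values of the tissues overlapped, and the lowest fat body value was 5.84 times the highest gut value. Per kilobase its share of subunit D was 0.122%, 0.0381% and 0.0295% in guts against 4.33%, 5.96% and 3.996% in fat bodies, so that Vha36-1 remained the main gene in both tissues. Within guts, Vha36-3 was highest in driver-alone and lowest in Xbp1U females. The germline and eggshell markers had summed scaled means of 2288, 134.9 and 512 in the driver-alone, Xbp1s and Xbp1U guts. In the fat bodies these sums were 24725, 26557 and 17166. The fat body markers summed to 46259, 17902 and 33080 in guts. Both lists were highest in driver-alone guts and lowest in Xbp1s guts, and so were the tubule and hemocyte markers. The hemocyte markers had 123, 49.1 and 86.5 in guts and 1236, 2230 and 1293 in fat bodies. The part of the cells that these lists mark in the Vha36-3 values was not tested.

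Subunit e had the same main gene in both tissues, VhaM9.7-b, at 93.6% to 94.1% of the subunit in guts and 64.5% to 71.7% in fat bodies. VhaM9.7-c had scaled means of 482, 374 and 448 in guts against 476, 447 and 526 in fat bodies, with overlapping values and a log2 difference of -0.16. Scaled to the total, this difference was -0.66 and the values no longer overlapped. Since VhaM9.7-b was 6.72-fold higher in gut, the share of VhaM9.7-c in subunit e was 6.18%, 5.66% and 5.96% in guts against 28.03%, 33.1% and 34.99% in fat bodies. Without a correction for length the share of VhaM9.7-c in fat bodies averaged 24.8%, against 32.0% with it. VhaM9.7-a had 13.8, 11.6 and 14.9 in guts against 3.94, 6.66 and 5.43 in fat bodies, at most 0.5898% of subunit e in any table.

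Subunit A was supplied almost wholly by Vha68-2. Its paralog Vha68-1, 22163 bp away on the opposite strand, had 199, 223 and 211 in guts against 243, 308 and 304 in fat bodies, and its share of subunit A was 0.546%, 0.462% and 0.535% in guts against 4.38%, 4.35% and 5.11% in fat bodies. The fat body values of Vha68-1 were all above its gut values, by 1.09-fold at the closest, which is below the 2-fold limit. Scaled to the total, this direction was kept for Vha68-1 and for Vha100-1, since that scaling raises fat body values relative to gut. How the counting treated reads that fit more than 1 paralog was not given in the sources used here, so that levels of closely related genes such as Vha68-1 beside Vha68-2 are uncertain. VhaAC39-2 (subunit d) had 14.2, 13.1 and 11.9 in guts against 1.16, 1.246 and 0.553 in fat bodies, a 14.02-fold higher level in gut, at a share of subunit d of at most 0.1295% in every table. VhaAC45RP, a relative of VhaAC45, had 15.4, 10.01 and 14.4 in guts against 11.9, 13.3 and 16.1 in fat bodies, with overlapping tissues and a log2 difference of -0.06, or -0.56 when scaled to the total.

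The other 9 Vha genes in the tables stayed below a mean of 10 everywhere. Vha68-3 was the nearest to the limit, with a highest deposited mean of 5.66, while the lowest members inside it were VhaAC39-2 and VhaM9.7-a with highest deposited means of 11.96 and 11.98 and VhaAC45RP with 19.3. Vha36-2 and VhaPPA1-2 had highest deposited means of 2.15 and 2.28, and Vha16-5 had 1.93. Vha16-3, Vha16-4, Vha100-3, Vha14-2 and VhaM9.7-d had highest deposited means of 0.180 to 0.519. Testis markers were near 0 as well, with none of 6 past the minimum.

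Within a table, the levels of the core subunits relative to each other were similar in the 2 tissues. Per kilobase of exon and relative to Vha68-2, Vha55 lay between 0.961 and 1.17, Vha26 between 0.946 and 1.19, and Vha36-1 between 0.720 and 1.11 over the 6 tables. Vha13 and Vha16-1 stood above the others, at 2.12 to 3.08 and 2.21 to 2.52 times Vha68-2. Vha44 (0.292 to 0.374), VhaSFD (0.373 to 0.540) and VhaM9.7-b (0.409 to 0.724) had the lowest ratios of the core set, and those of VhaSFD and VhaM9.7-b overlapped. The order of these ratios depends on the annotated length, since Vha16-1 has 3077 bp of exon and 477 bp of coding sequence.

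The 3 genotypes were compared within a tissue by whether the highest mean was at least 1.5 times the lowest. In guts 3 of 23 members were apart (13.04%), against 34.3% of all genes, and in fat bodies 5 of 23 (21.7%), against 36.0% of all genes. In guts these were Vha36-3, VhaAC45RP and Vha100-4, the last by 1.52-fold. In fat bodies they were Vha100-4 (9.34-fold), Vha100-5 (2.68-fold), VhaAC39-2, VhaM9.7-a and Vha14-1, which was the single core gene and lay at 1.51-fold. Vha100-4 in guts and Vha14-1 in fat bodies lay close to the limit, and neither was called when scaled to the total. Each of the others had a mean far below that of the main gene of its subunit, or of VhaAC45 for VhaAC45RP.

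Core genes in Xbp1s guts were mostly above those in driver-alone guts by a small margin. The ratio of the scaled means was 1.23 at the median of the 13 genes, with a range of 0.853 (VhaM9.7-b) to 1.34 (VhaSFD). The scaled mean was higher in Xbp1s than in driver-alone guts for 11 of 13 core genes, against 5033 of 10465 genes. The median over all genes for the same ratio was 0.986. For Xbp1U over driver-alone guts the core median was 1.1 against 0.982 over all genes. In fat bodies it was 1.14 for Xbp1s and 1.08 for Xbp1U, against 1.06 and 1.04 over all genes. Scaling to the total moves the ratios of all genes alike, and the core median was then 1.15 for Xbp1s guts and 0.997 for Xbp1U guts, against 0.915 and 0.891 over all genes. Both Xbp1 lines were set against the same driver-alone tables. Each genotype is a separate set of libraries and pools fed and unfed flies, so that genotype and library preparation cannot be told apart here.

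The genotype ratios in Xbp1s females went with transcript length. A length limit of 1500 bp of exon was set after these values had been seen. The 5 core genes below it, Vha14-1, Vha13, Vha36-1, VhaM9.7-b and VhaPPA1-1, had a median Xbp1s to driver-alone ratio of 1.004 in guts and 0.949 in fat bodies. The 8 longer ones had 1.33 and 1.24. Over all genes the same split gave 0.867 below and 1.04 above the limit in guts, and 0.955 and 1.11 in fat bodies. Spearman's rho between the log2 ratio and exonic length over the 13 core genes was 0.52 in guts and 0.64 in fat bodies for Xbp1s, and 0.19 and 0.25 for Xbp1U. These values are across genes that share libraries and are a description only, and over all genes rho was 0.23, 0.23, 0.13 and -0.0043 in the same order.

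**Figure D5:**
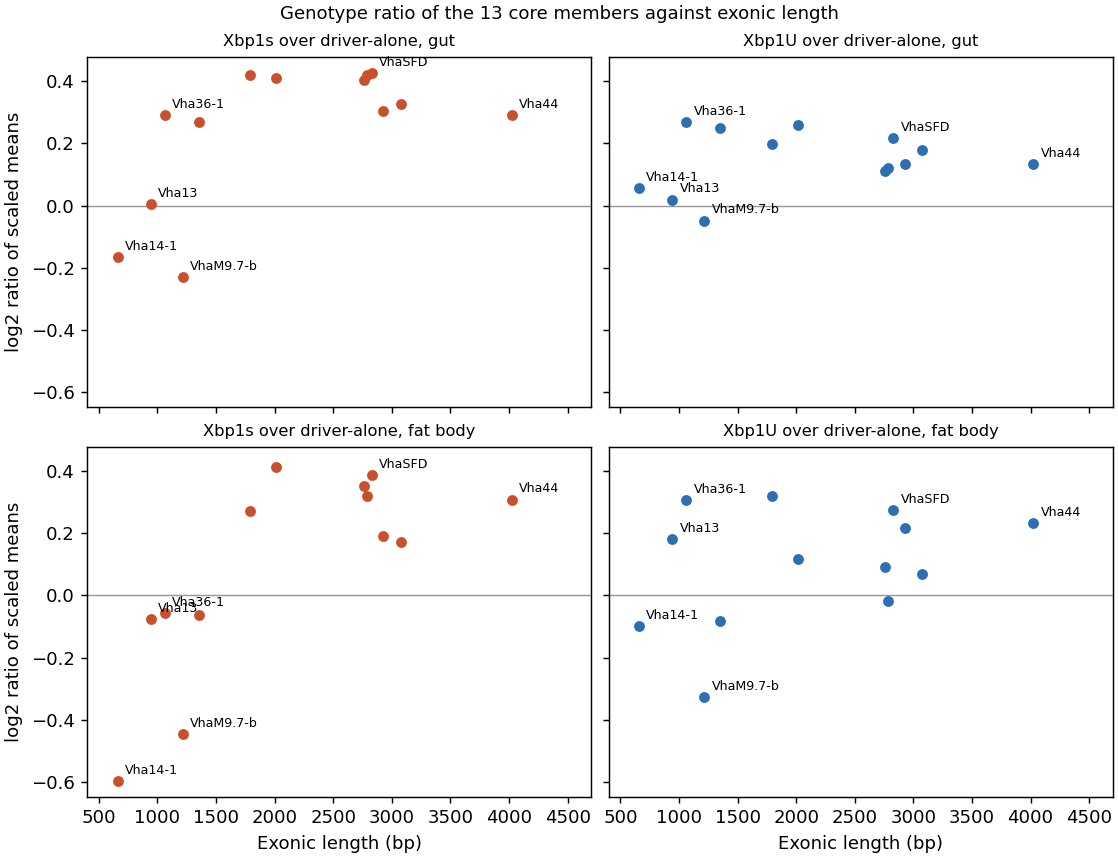
Log2 ratio of the scaled mean in Xbp1s (left) or Xbp1U (right) to that in driver-alone females against exonic length in bp for the 13 core genes, in guts (top) and fat bodies (bottom); each point is a gene and the grey line marks equal levels. In Xbp1s fat bodies all 5 genes below 1500 bp lie under the line and all 8 longer genes lie above it, with Vha14-1 lowest at -0.60.

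Most other genes of the pathway did not share the size of the tissue difference. Of 8 genes for V-ATPase assembly and regulation, 1 was called higher in gut and 0 in fat body, with a median log2 difference of 0.53. Rbcn-3B, a partner of the rabconnectin complex that helps to assemble the pump, had 2093, 2578 and 2357 in guts against 776, 820.0 and 683 in fat bodies, and its partner Rbcn-3A had 2431, 2749 and 2534 in guts against 1245, 1103 and 1033 in fat bodies. Mitf, the transcription factor that controls V-ATPase and lysosomal genes in flies, had 3026, 2826 and 3065 in guts against 1935, 1878 and 2012 in fat bodies. Of 12 lysosomal genes past the minimum, 1 was higher in gut (Cln3), 1 was higher in fat body (Gba1b), and the median was 0.02. CtsL1, a lysosomal protease, had 16558, 20369 and 22306 in guts against 26706, 35041 and 32184 in fat bodies, with every fat body value above every gut value, while Lamp1, a protein of the lysosomal membrane, had 13498, 16276 and 16274 in guts against 6963, 8813 and 9012 in fat bodies. Scaled to the total, the medians of both lists are lower by the 0.50 given above, at 0.03 for the assembly list and -0.48 for the lysosomal list.

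Markers of the Malpighian tubule, which is attached to the gut, and of muscle were measured beside the core genes. The 7 tubule markers had summed scaled means of 7461, 1718 and 5593 in the driver-alone, Xbp1s and Xbp1U guts and 3608, 4246 and 5386 in the fat bodies. Of these 7 markers, 0 were called higher in gut and 1, NtR, was called higher in fat body. NtR had 42.6, 26.8 and 31.7 in guts against 341, 555 and 406 in fat bodies. Uro, which was not called, had 1666, 369 and 1325 in guts against 564, 874 and 885 in fat bodies. The summed tubule marker level was lowest in Xbp1s guts. The 8 muscle markers, of which 1 was called higher in gut, summed to 45828, 58080 and 51737 in guts and 35592, 59049 and 44293 in fat bodies. The part of tubule and muscle cells in the V-ATPase levels was not tested.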

How the data were processed

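Guts and fat bodies of 3 genotypes were profiled by poly(A) RNA sequencing with paired reads of 150 bases. The authors checked reads with FastQC, aligned them to dm6 with HISAT2, counted them over exons per gene with featureCounts (FlyBase r6.47), removed 4 samples that clustered apart (2 Xbp1s guts, 1 Xbp1s fat body and 1 driver-alone gut) and compared RU+ with RU- in DESeq2. The signal deposited by the authors is a mean over all libraries of a table of counts divided by size factors. Other columns hold the authors' comparisons (fold changes, errors, statistics, p-values) and were not used. Depth per library is therefore unknown, and no interval is given. The sources used here do not say whether these are among the 48 labelled libraries.

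Means were scaled by median of ratios over 8408 genes whose mean reached 10 in each of the 6 tables (Python 3.11.15, pandas 2.3.3, numpy 2.4.6). Symbols came from FlyBase identifiers (99.8% of 16185 matched), and coordinates and lengths from Ensembl release 115 (BDGP6.54, the coordinates of dm6). Calls needed 2-fold between tissues or 1.5-fold between genotypes, and the script for tissue calls was tested on simulated data. All members past the minimum were named, with full values for main paralogs, paralogs that differed between tissues in share by 10 percentage points, and the largest differences. Members and lists were chosen with earlier results of these data known. The alternatives changed scaling, limits, minimum, genotypes and length.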

Additional observations from a re-analysis of the deposited data

How the results depend on the processing

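The count of members higher in gut was 17 of 23 and lay between 16 and 18 under 8 alternatives. These were scaling to the total, limits of 1.5-fold and 3-fold, a minimum of 100 or none, and leaving out each genotype. A minimum of 100 left 20 members to test, and no minimum gave 27. Under the alternatives 11.1% to 19.1% of all genes were called higher in gut. Vha36-3 was the 1 member higher in fat body in all of them, against 10.3% to 22.6% of all genes. Vha100-2 left the gut calls with scaling to the total and at 3-fold, VhaAC39-2 with a minimum of 100, while VhaM9.7-a entered at 1.5-fold and without the Xbp1s tables, and Vha68-3 with no minimum. The median log2 difference of the core set was 2.70, and 2.20 scaled to the total, which takes the same amount from every gene. Without each genotype it was 2.64 to 2.69. Members apart between genotypes numbered 3 in guts, and 14 with a looser limit (59.4% of all genes) and 1 at 2-fold (19.8%). In fat bodies they numbered 5, and 16 with the looser limit (67.0% of all genes), 3 at 2-fold (15.2%) and 3 of 20 with a minimum of 100 (29.3%). The mean share of Vha100-5 in guts was 48.1%, 47.2% with no length correction and 48.1% with coding in place of exonic length. No paired analysis was possible because each table holds 1 mean per gene. Leaving out single libraries could not be run for the same reason, and the search for a promoter motif was not run, as no promoter sequence was used here. The means carry no error, so small differences, such as those of Vha100-1 and Vha68-1, cannot be set against replicate spread.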
